A study of Bos taurus and Bubalus bubalis with 9 samples.

Results

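Circular RNAs (circRNAs) of LMO7 were described in Xinyang buffalo muscle and in Nanyang cattle, whose muscle and fat were both sampled. A circRNA is known here by its back-splice junction, the point at which a downstream splice donor was joined to an upstream splice acceptor, so that the RNA closes into a ring. Every row with the symbol LMO7 was taken from the circRNA tables of both species, which gave 17 junctions among the 24221 circRNAs listed. The buffalo table held 11 of them among 10701 circRNAs, the cattle table held 13 among 18535, and 7 stood in both. Of the 17, 16 had at least 1 read in the 9 libraries used, and the remaining junction was listed with no read in them. In the buffalo mRNA table, 1 transcript of 19917 could be paired with the name LMO7. The gene was selected on a measured value, the level of its leading junction in buffalo muscle, which ranked 2 by mean there, so muscle levels are given as a description.

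LMO7 (LIM domain only 7) is a scaffold protein with a calponin homology domain, a PDZ domain and a LIM domain. It binds afadin and alpha-actinin at adherens junctions, where neighbouring cells are held together, and it binds emerin at the inner nuclear membrane and takes part in the control of muscle genes. Circular RNAs lack free ends and therefore a poly(A) tail, and an abundant circRNA from this locus is known in bovine muscle cells.

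The study asked why buffalo deposit little intramuscular fat. The study sequenced 3 Xinyang buffalo, low in intramuscular fat, and 3 Nanyang cattle, higher in it, kept on separate farms under like forage and management. Animals of both species were weaned at 3 months, castrated at 6 months, fattened from 18 months and slaughtered at 30 months. The libraries used here form 3 groups of 3, buffalo longissimus dorsi muscle, cattle longissimus dorsi muscle and cattle back subcutaneous adipose tissue. Which muscle and adipose libraries of cattle share an animal is not stated. Library totals recovered from the values were 60015000 to 65777200 reads in buffalo muscle, 35712300 to 42265500 in cattle muscle and 36842300 to 38836700 in the adipose libraries. Reads across all back-splice junctions numbered 4472 to 6122, 15440 to 27141 and 12042 to 21053 in these groups. Tissue labels were checked by circRNAs whose hosts are marker genes. Junctions of 17 skeletal muscle markers summed to between 24.3 and 33.0 RPM (reads scaled to the library total) in cattle muscle. In the adipose libraries they were at 0 in libraries 1 and 3 and at 0.0269 RPM, a single NEB read, in library 2. Those of 16 adipocyte markers summed to between 0.168 and 0.238 RPM in cattle muscle and between 1.33 and 2.39 RPM in fat.

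All LMO7 junctions lay on the plus strand of chromosome 12 of the cattle genome UMD3.1, to which reads of both species had been aligned, and were assigned to transcript ENSBTAT00000014167 of gene ENSBTAG00000010693. The tables class 15 of them as exonic and 2 as spanning exon and intron. They used 9 acceptors and 10 donors, and 4 of the acceptors and 3 of the donors served more than 1 junction. The stretch between the joined ends ran from 1356 to 41780 bp. The 41780 bp stretch belonged to the junction without reads, at chr12:51100245-51142024. Acceptor 51190589 was joined to 4 different donors, and donor 51221902 to 5 different acceptors. The leading junction joins these most used ends, at chr12:51190589-51221902, and spans 31314 bp, longer than 86.1% of the circRNA spans in buffalo muscle (median 9032 bp) and 85.0% of those in cattle muscle (median 9366.5 bp). Junctions that share an end share a splice site, so they are not independent of each other.

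**Figure D1:**
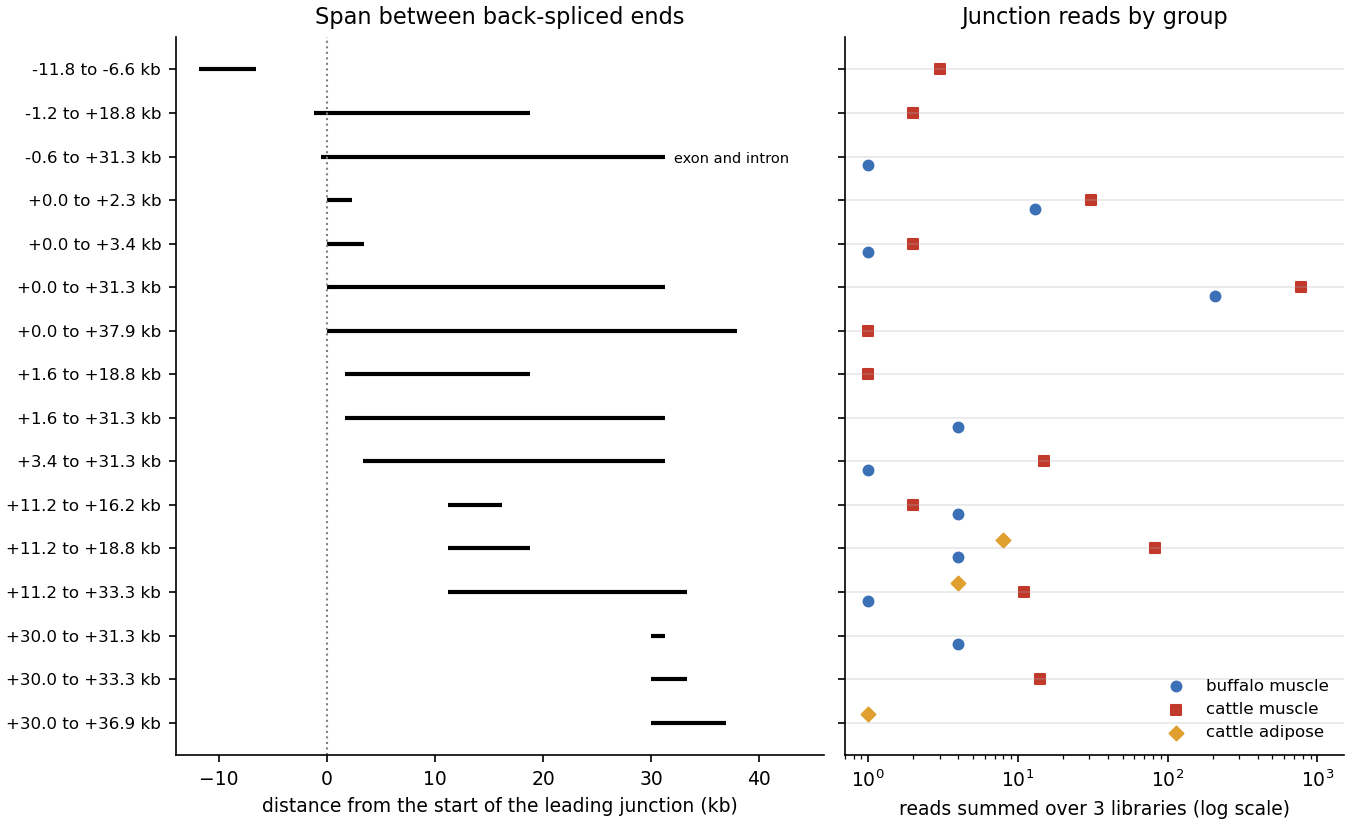
Map of the 16 LMO7 junctions with reads. The left panel draws each stretch between joined ends as a line against the distance from the start of the leading junction in kb, and the right panel gives its reads summed over the 3 libraries of each group on a log scale. The leading junction held 208 reads in buffalo muscle and 776 in cattle muscle, and adipose reads fell on 3 other junctions.

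The leading junction was among the most abundant circRNAs of muscle in both species. In buffalo muscle it had 70, 58 and 80 reads in libraries 1 to 3, or 1.06, 0.911 and 1.33 RPM, with a mean of 1.10 ± 0.214 RPM (SD, n = 3). It ranked 2, 5 and 2 among the circRNAs of these libraries, and stood at 2 by mean among 4737 detected. In cattle muscle it had 256, 341 and 179 reads, or 6.77, 8.07 and 5.01 RPM, with a mean of 6.62 ± 1.53 RPM (SD, n = 3). Its ranks there were 4, 4 and 5, and it stood at 4 of 11998 by mean. The exact Poisson 95% intervals, which cover counting error only, were 0.830 to 1.34, 0.692 to 1.18 and 1.06 to 1.66 RPM in buffalo muscle and 5.97 to 7.66, 7.23 to 8.97 and 4.30 to 5.80 RPM in cattle muscle. The interval of cattle muscle 3 did not overlap those of the other cattle muscle libraries. Reads without molecular identifiers are not independent molecules, so true intervals may be wider.

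In cattle adipose tissue no read of the leading junction was found. With 0 reads, the limit taken in each library is 3 reads, and a level of up to 0.0814, 0.0807 and 0.0772 RPM remained possible in libraries 1 to 3. Against the highest of these limits, the cattle muscle mean was at least 81.3-fold higher, and the lowest cattle muscle library at least 61.6-fold higher. By limma on log2(RPM + 1), cattle muscle exceeded adipose tissue by 2.91 (SE 0.14, Benjamini-Hochberg adjusted p = 0.000106), a scale that understates large changes. The junction passed the filter of at least 2 reads in at least 3 of the 6 cattle libraries through muscle alone. It therefore had to differ, and its call, separation and rank are a description. All 3 muscle libraries stood above all 3 adipose libraries, and the junction ranked 4 of 1917 circRNAs tested by the size of this difference. Of these 1917, 59 (3.08%) were called higher in muscle, and 294 (15.3%) had all muscle libraries above all adipose libraries. In bulk tissue, fewer cells of a type and less of the RNA per cell cannot be told apart. Skeletal muscle markers moved with this difference, as given above, and their part in it was not tested.

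**Figure D2:**
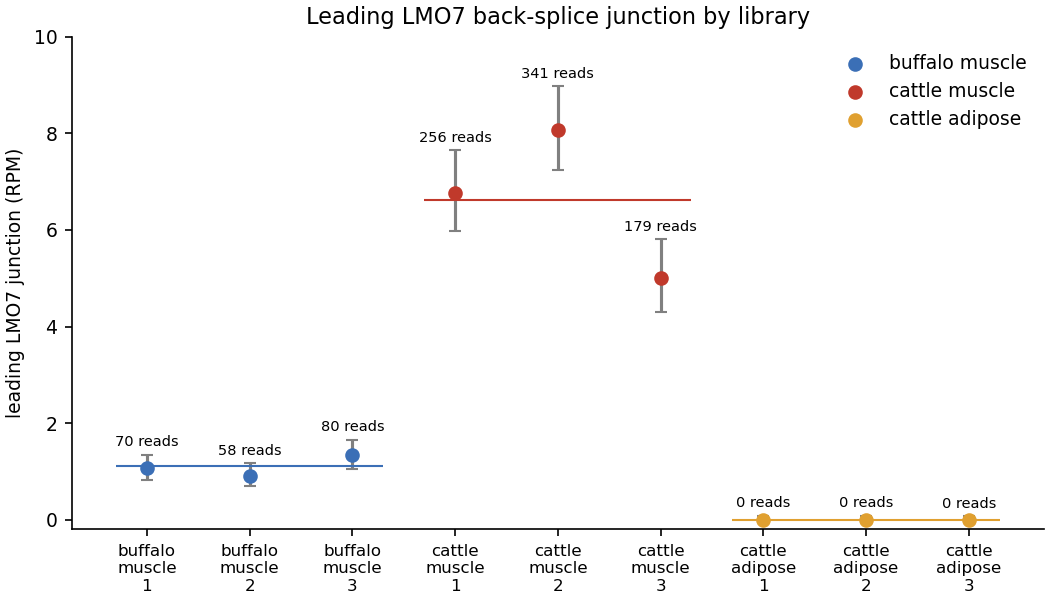
Level of the leading LMO7 junction in RPM for each library. Points are libraries with their reads, vertical bars are exact Poisson 95% intervals for counting error or, at 0 reads, reach the limit of 3 reads, and horizontal lines are group means. Cattle muscle lies between 5.01 and 8.07 RPM, buffalo muscle between 0.911 and 1.33 RPM, and all adipose libraries at 0.

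Summed over its junctions, LMO7 gave 83, 66 and 92 reads in buffalo muscle, 278, 420 and 242 in cattle muscle and 2, 3 and 8 in cattle adipose tissue. These were 1.26, 1.04 and 1.53 RPM in buffalo muscle (mean 1.28 ± 0.249, SD, n = 3). In cattle muscle they were 7.35, 9.94 and 6.78 RPM (mean 8.02 ± 1.68, SD, n = 3), and in cattle adipose tissue 0.0543, 0.0807 and 0.206 RPM (mean 0.114 ± 0.0811, SD, n = 3). The cattle muscle mean was 70.6 times the adipose mean, and 119 times without adipose library 3, the highest of them. The cattle tissues did not overlap, and host gene sums tested by limma on log2(RPM + 1) gave a difference of 3.00 (SE 0.13, Benjamini-Hochberg adjusted p = 3.75e-05), which ranked 4 of 1837 hosts. Among these hosts, 54 (2.94%) were called higher in muscle and 230 (12.5%) had muscle above adipose tissue in all libraries. As a host gene, LMO7 ranked 3 of 2278 by mean in buffalo muscle, 5 of 3882 in cattle muscle and 901 of 3705 in adipose tissue of cattle. In single libraries its rank was 3, 4 and 2 in buffalo muscle, 5, 3 and 5 in cattle muscle and 1178, 1331 and 414 in adipose tissue.

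Buffalo and cattle muscle were set side by side without a test, because their tables were made separately and buffalo reads were aligned to the cattle genome. LMO7 stood 6.28 times higher in cattle muscle than in buffalo muscle by mean RPM, and its leading junction 6.0 times higher. The RPM summed over all circRNAs was 6.62 times higher in cattle muscle as well, with 74.5 to 96.1 RPM in the buffalo libraries and 408 to 642 RPM in the cattle libraries. As a share of the circRNA reads of a library, LMO7 held 1.57, 1.08 and 2.06% in buffalo muscle (mean 1.57 ± 0.490%, SD, n = 3) and 1.80, 1.55 and 1.10% in cattle muscle (mean 1.48 ± 0.352%, SD, n = 3). On this scale the species overlapped, and the ratio of cattle to buffalo was 0.947. In cattle adipose tissue the share was 0.0166, 0.0142 and 0.0565% (mean 0.0291 ± 0.0237%, SD, n = 3), below every muscle library on both scales. The part of the total circRNA level, of read alignment across species and of RNA selection in the RPM difference was not tested.

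**Figure D3:**
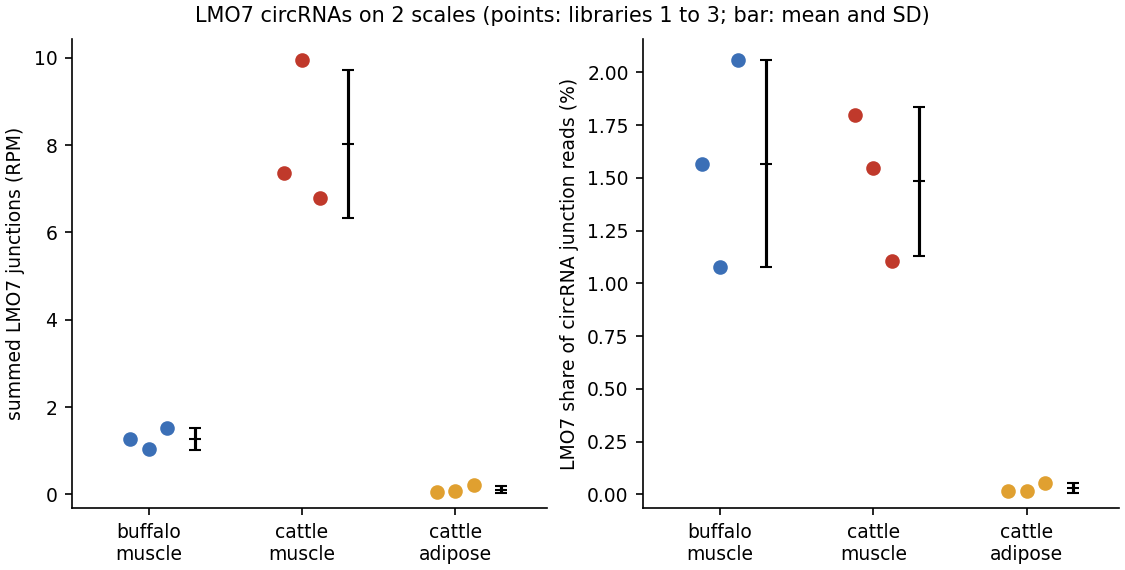
LMO7 junctions summed per library, in RPM (left) and as a percentage of all circRNA junction reads of the library (right). Points are libraries 1 to 3 of each group and bars are the mean and SD (n = 3). Cattle muscle lies above buffalo muscle in RPM, the muscle groups overlap as shares, and adipose tissue lies lowest on both.

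Of the 16 junctions with reads, buffalo muscle held 10, cattle muscle 12 and cattle adipose tissue 3. Most were rare. In buffalo muscle 2 junctions were found in all 3 animals, in cattle muscle 6, and in adipose tissue 1. Of all junctions, 4 rested on 1 read over all 9 libraries. The libraries held 6, 5 and 6 LMO7 junctions in buffalo muscle, 7, 10 and 7 in cattle muscle and 2, 1 and 2 in adipose tissue. The 7 junctions detected in muscle of both species were 70% of those in buffalo and 58.3% of those in cattle. They took 232 of 241 buffalo reads (96.3%) and 919 of 940 cattle muscle reads (97.8%).

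The leading junction took most of the LMO7 reads in muscle. Its share was 84.3, 87.9 and 87.0% in buffalo muscle (mean 86.4 ± 1.84%, SD, n = 3) and 92.1, 81.2 and 74.0% in cattle muscle (mean 82.4 ± 9.12%, SD, n = 3). Among hosts with at least 50 junction reads, the median share of the leading junction was 74.2% over 28 hosts in buffalo muscle and 60.9% over 201 hosts in cattle muscle. With reads pooled over libraries, LMO7 had 86.3% and 82.6%, above 67.9% and 69.7% of those hosts. Selection on the level of this junction in buffalo muscle makes a high share likely, so these positions are a description. LMO7 also had more junctions than the medians of those hosts, with 10 against 5.5 in buffalo muscle and 12 against 8 in cattle muscle. It ranked 3 and 5 by reads in these groups. The junction counts were not matched for reads, and the part of read number in them was not tested. In adipose tissue the share was 0% in each library, out of 2, 3 and 8 reads. The difference between the cattle tissues was 82.4 percentage points, and an exact two-sided permutation test gave p = 0.1, the smallest value 3 libraries against 3 allow. The leading junction was chosen by its reads over all cattle libraries, and muscle gave 940 of the LMO7 reads there. A higher share in muscle was thus built in, and the test is no support. With 13 adipose reads in all, these shares are coarse. Of 849 hosts with at least 10 reads in each cattle tissue, 75 (8.83%) likewise had no adipose read at the junction that led in muscle, and 12 (1.41%), LMO7 among them, did so at a junction with over 50% of their muscle reads.

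Adipose reads of LMO7 came from another acceptor. Acceptor 51201755, which lies 11166 bp downstream of the leading one, had 1, 3 and 8 reads in adipose libraries 1 to 3, so 12 of the 13 adipose reads (92.3%) began there. It was used in muscle as well, with 4, 3 and 2 reads in buffalo muscle and 6, 54 and 35 reads in cattle muscle. Its share of LMO7 reads was 4.82, 4.55 and 2.17% in buffalo muscle, 2.16, 12.9 and 14.5% in cattle muscle and 50, 100 and 100% in adipose tissue. Cattle muscle 1 thus resembled buffalo muscle in this share, and cattle muscle 2 and 3 stood higher. In RPM, the acceptor had 0.159, 1.28 and 0.980 in cattle muscle (mean 0.805 ± 0.580, SD, n = 3) and 0.0271, 0.0807 and 0.206 in adipose tissue (mean 0.105 ± 0.0918, SD, n = 3). The muscle mean was 7.70 times the adipose mean, and 14.9 times without adipose library 3, but the groups overlapped, as cattle muscle 1 lay below adipose library 3. By contrast acceptor 51190589 had 222 reads in muscle of buffalo, 810 in that of cattle and 0 in adipose tissue, and donor 51221902 had 218, 791 and 0 reads.

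**Figure D4:**
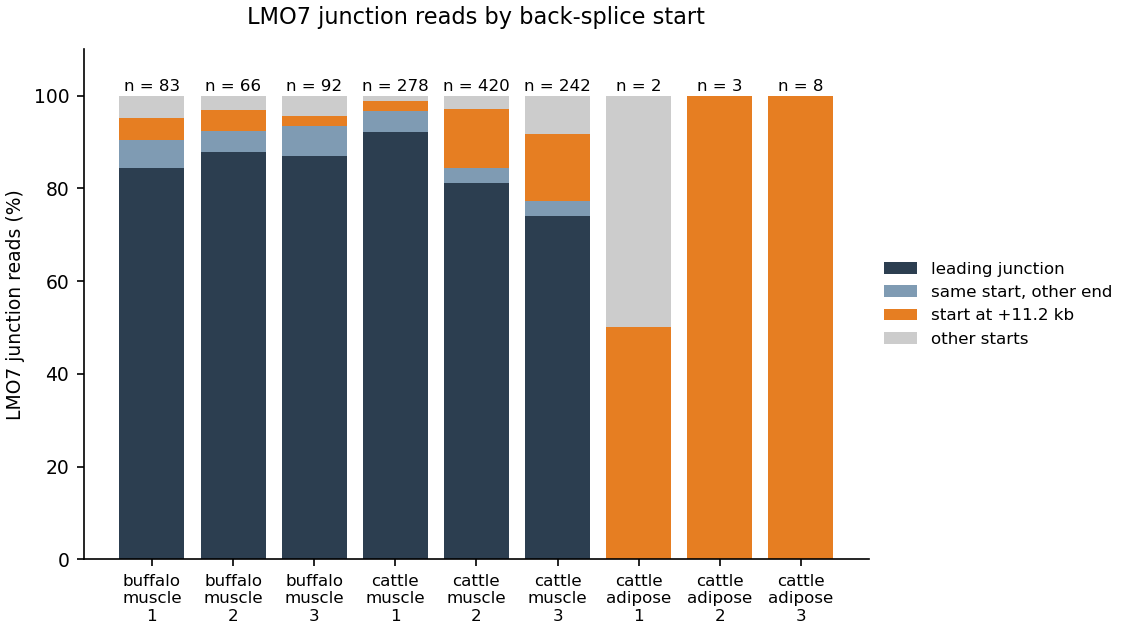
Share of LMO7 junction reads by back-splice start in each library, in percent, with the number of reads above each bar. The leading junction takes 74.0 to 92.1% of the reads in every muscle library and none in adipose tissue, where the start 11.2 kb downstream takes 50 or 100% of 2 to 8 reads.

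Of the 13 cattle junctions, 5 passed the filter of at least 2 reads in at least 3 of the 6 cattle libraries. The leading junction and 2 more passed through muscle alone, and a junction that passes in this way has to differ, so their calls are given singly and not as a count in support. The short junction at chr12:51190589-51192931, which shares the leading acceptor and spans 2343 bp, had 4, 3 and 6 reads in buffalo muscle, 12, 11 and 8 in cattle muscle and 0 in every adipose library. Its levels were 0.0608, 0.0471 and 0.10 RPM in buffalo muscle (mean 0.0693 ± 0.0274, SD, n = 3) and 0.317, 0.260 and 0.224 RPM in cattle muscle (mean 0.267 ± 0.0471, SD, n = 3). Along with the leading junction, it was found in all 6 muscle libraries. Its tissue difference in limma was 0.34 (SE 0.05, Benjamini-Hochberg adjusted p = 0.0120) on log2(RPM + 1), and the call was lost without adipose library 1 (adjusted p = 0.0619) or adipose library 3 (adjusted p = 0.0709).

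The junction at chr12:51201755-51209400 was next to the leading one in reads in cattle. It had 0, 2 and 2 reads in buffalo muscle, 4, 46 and 32 in cattle muscle and 1, 3 and 4 in adipose tissue. In cattle muscle this was 0.106, 1.09 and 0.896 RPM (mean 0.697 ± 0.521, SD, n = 3) and in adipose tissue 0.0271, 0.0807 and 0.103 RPM. Cattle muscle 1 was almost level with the highest adipose library, and limma did not call the junction (0.61, SE 0.22, Benjamini-Hochberg adjusted p = 0.208). Without cattle muscle 1 it was called (0.90, adjusted p = 0.00214). On the recovered reads edgeR without TMM, which calls 5.32% of the circRNAs higher in muscle, gave an adjusted p of 0.00371, and DESeq2 gave 0.00501.

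The junction at chr12:51201755-51223929 shares this acceptor and had 0, 1 and 0 reads in buffalo muscle, 2, 6 and 3 in cattle muscle and 0, 0 and 4 in adipose tissue. Muscle and adipose libraries overlapped, and limma did not call it (Benjamini-Hochberg adjusted p = 0.597). The junction at chr12:51220547-51223929 was found in cattle muscle only among the 9 libraries, with 2, 2 and 10 reads, and was not called by limma (Benjamini-Hochberg adjusted p = 0.365). Of 15 alternatives 14 did not call it either, with adjusted p of 0.0708 by edgeR without TMM and 0.0969 by DESeq2, and edgeR with TMM did (adjusted p = 0.0483). Its donor had 25 reads in cattle muscle, 1 in buffalo muscle and 4 in adipose tissue. The junction at chr12:51193960-51221902 uses the leading donor and had 0, 0 and 1 reads in buffalo muscle and 1, 5 and 9 in cattle muscle, with none in adipose tissue. Cattle muscle 3 was thus the highest library for both.

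Most of the remaining junctions were seen in 1 group. The junctions at chr12:51190589-51193989 and chr12:51201755-51206758 were shared by both species at 1 to 4 reads, and the latter was the sole shared junction with a lower mean RPM in cattle than in buffalo muscle (ratio 0.778), from 4 reads in buffalo muscle 1 and 2 reads in cattle muscle 2. Junctions found in buffalo muscle alone had at most 4 reads. They were chr12:51192209-51221902 and chr12:51220547-51221902 with 4 reads each, and the exon and intron junction at chr12:51190029-51221902 with 1 read. All of them end at the leading donor. The junctions found in cattle muscle alone, other than the one from 51220547, had 1 to 3 reads, and the one found in adipose tissue alone, chr12:51220547-51227506, had 1 read in library 1. At these reads a species or tissue difference in single junctions was not detectable.

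Linear LMO7 RNA was examined here in buffalo muscle, and mRNA values of other tissues were not used here. Transcript ENSBTAT00000014167, the one to which the junctions were assigned, had 100.5, 68.1 and 78.2 FPKM (fragments scaled to transcript length and library size) in libraries 1 to 3, a mean of 82.2 ± 16.6 FPKM (SD, n = 3). It ranked 877, 1119 and 961 of 19917 listed transcripts, and by mean it stood at 967, above 95.1% of them. The order of the animals differed between the RNAs, as the mRNA was highest in buffalo muscle 1 and the leading junction in buffalo muscle 3. FPKM is scaled to transcript length and junction RPM is not, so the levels themselves were not compared. The depth behind an FPKM value is unknown.

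Relatives of LMO7 with LIM domains had few circRNA reads. Of a list of 31 such genes, 18 had junction reads in cattle muscle, 7 in cattle adipose tissue and 12 in buffalo muscle, and none reached the mean of LMO7 in muscle of either species, which its selection on a junction level makes likely and which is no finding. LPP, a zyxin family protein of focal adhesions, had the most, with 3 reads in muscle of buffalo, 16 in that of cattle and 41 in adipose tissue. LIMCH1, the closest relative of LMO7, had 1, 8 and 3 reads in these groups. It was named for that relation and not by its reads. Of the list, 4 passed the filter, and none was called in either direction by limma (1 at an unadjusted p under 0.05, LPP), by edgeR or by DESeq2. Over all 1837 hosts limma called 3.81% in either direction, edgeR 8.93% with TMM and 6.48% without, and DESeq2 6.37%, so a count of 0 of 4 is not a result about the list. Their median difference was -0.02 on log2(RPM + 1), against 0.00013 for all 1837 hosts.

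As mRNAs, several of them stood above LMO7. Of 23 with a paired name, 10 had a higher mean FPKM in buffalo muscle than LMO7, and the median of the list was 31.7 FPKM. PDLIM3, a Z-disc protein that binds alpha-actinin, had 2385 ± 544 FPKM (SD, n = 3) beside 7 junction reads in buffalo muscle. PDLIM5, of the same family, had 323 ± 76.5 FPKM beside 2 junction reads, and LIMCH1 had 78.1 ± 9.78 FPKM, close to LMO7, beside 1 junction read.

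Genes of the partners of LMO7, of adherens junctions and of the nuclear envelope were listed as well. Of 27 symbols listed, 16 had reads in cattle muscle, 13 in cattle adipose tissue and 10 in buffalo muscle, none above LMO7 in muscle, with the same limit. MLLT4, MRTFA and MRTFB, listed without reads, are other symbols of AFDN, MKL1 and MKL2, so the list holds fewer genes than symbols. SYNE1, which encodes the nuclear envelope protein nesprin-1, had 13 reads in muscle of buffalo, 54 in that of cattle and 48 in adipose tissue. CTNNA1, or alpha-catenin, had 2, 23 and 44 reads, and NECTIN3, a cell adhesion protein, had 5, 19 and 42, of which 18 of the cattle muscle reads stood in library 2 and 1 in library 3. AFDN, which encodes afadin, had 2 reads in each cattle muscle library and 7, 9 and 8 in the adipose libraries. It stood higher in all adipose libraries, at 0.0521 RPM in muscle and 0.213 RPM in adipose tissue by mean, but was not called by limma (Benjamini-Hochberg adjusted p = 0.0938). ACTN2, the alpha-actinin of the muscle Z-disc, had 4, 11 and 0 reads, with 1835 ± 202 FPKM (SD, n = 3) as an mRNA. Of the 6 that passed the filter none was called by limma, edgeR or DESeq2, which at the shares over all hosts given above is no result about the list. Of them 1 (AFDN) had an unadjusted p under 0.05 in limma, and their median difference was -0.14 on log2(RPM + 1). In 19 with a named mRNA, 4 exceeded LMO7 in buffalo muscle, and the median was 22.7 FPKM.

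Of the 5 hosts most alike to LMO7 over the 6 cattle libraries, 3 encode sarcomere proteins. Among 46 other hosts with a mean of at least 1 RPM, the Pearson correlation of log2(summed RPM + 1) with LMO7 was highest for MYL1 (r = 0.997), a fast myosin light chain, NEB (r = 0.997), which encodes the thin filament protein nebulin, and MYBPC1 (r = 0.988), a myosin-binding protein. MYL1 had 4.87, 6.32 and 5.46 RPM in cattle muscle and 0 in adipose tissue. NEB had 16.1, 22.9 and 19.3 RPM in muscle and 0, 0.0269 and 0 in adipose tissue, and MYBPC1 had 7.75, 9.20 and 11.5 RPM in muscle and 0 in adipose tissue. USP13 (r = 0.966), a deubiquitinating enzyme, and UBE2D1 (r = 0.963), a ubiquitin-conjugating enzyme, followed. USP13 had 1.24, 2.34 and 2.18 RPM in muscle and 0.109, 0.215 and 0.0515 RPM in adipose tissue. UBE2D1 had 13.3, 32.8 and 27.8 RPM in muscle and 0.353, 1.99 and 0.386 RPM in adipose tissue. The 6 libraries form a muscle and an adipose cluster, so r is a description of that contrast. LMO7, USP13 and UBE2D1 had reads in every adipose library, NEB in 1 of them, and MYL1 and MYBPC1 in none.

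**Figure D5:**
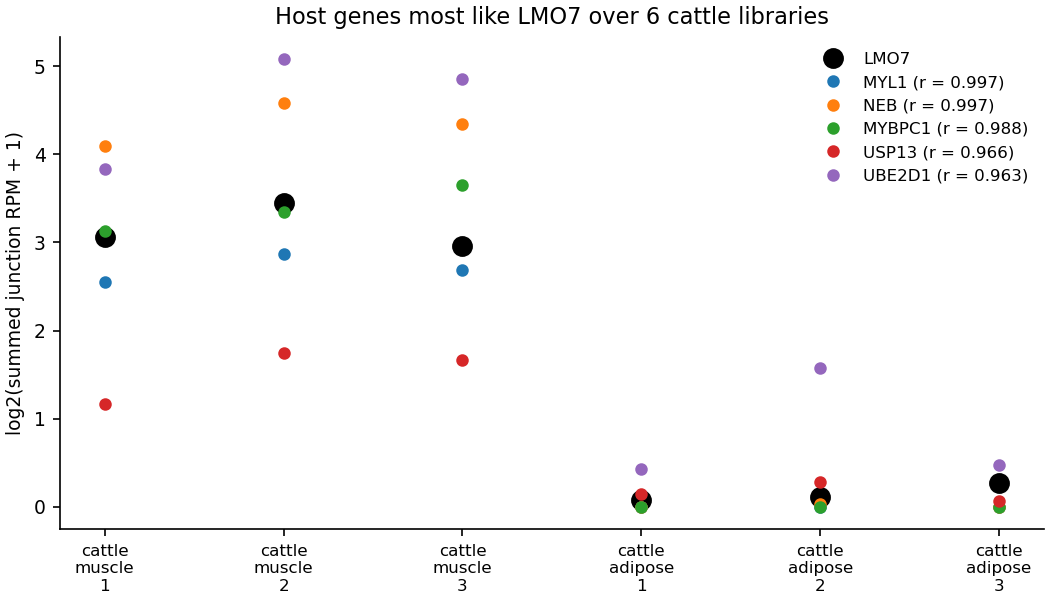
Summed junction level, as log2(RPM + 1), of LMO7 and the 5 host genes most alike to it in the 6 cattle libraries, with Pearson r against LMO7 in the legend. Each host lies higher in all of its muscle libraries than in any of its adipose libraries, and MYL1 and MYBPC1 are at 0 in adipose tissue, where LMO7 has 0.0543 to 0.206 RPM.

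Genes next to LMO7 on the chromosome, named from the RefSeq gene order of assembly ARS-UCD2.0, had fewer junction reads. UCHL3, a deubiquitinating enzyme and the nearest of them, had 1 junction in each table, with 1 read in buffalo muscle, 4, 10 and 5 reads in cattle muscle and 1, 0 and 7 in adipose tissue. TBC1D4, a regulator of glucose transporter traffic, had 24 reads in muscle of buffalo, 35 in that of cattle and 11 in adipose tissue over 11 junctions in cattle. For COMMD6 no circRNA was listed. As mRNAs in buffalo muscle, UCHL3 had 57.1, 47.9 and 47.2 FPKM and TBC1D4 had 37.2, 23.2 and 23.4 FPKM, below LMO7 in every library.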

How the data were processed

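The authors built libraries with an Illumina TruSeq RNA v2 kit, whose usual protocol selects polyadenylated RNA, and its effect on circRNA levels was not tested. They trimmed reads with Trim Galore, aligned both species to UMD3.1 with STAR and computed mRNA values with Cufflinks 2.2.1 and Cuffdiff. The circRNA caller is not given in the sources used here. The circRNA tables deposited by the authors hold RPM per back-splice junction, and the mRNA table deposited by the authors holds FPKM per transcript. A further 9 columns of buffalo adipose tissue were not used here, nor was the lncRNA table.

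In each circRNA column 100% of values were whole multiples of 1 step within 0.01 reads, and reads and library totals were recovered from it. Which reads enter these totals is not stated. Host sums add all junctions of a symbol. Names for 6795 transcripts came from the circRNA tables and the study's supplementary tables.

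The members and gene lists were chosen with earlier results of these data known, so no test of LMO7 is independent evidence. Cattle tissues were compared with limma 3.58.1 (R 4.3.3) on log2(RPM + 1) over circRNAs, or host sums, with at least 2 reads in at least 3 of the 6 libraries. P-values were Benjamini-Hochberg adjusted over all of them, with a threshold of 0.05. Each library is 1 animal, and p-values measure the spread between these samples. Alternatives were a pseudocount of 0.1, other filters, scaling to circRNA reads, a replicate block, each library left out, and edgeR 4.0.16 and DESeq2 1.42.0 on recovered reads. Shares were compared with an exact permutation test that went through every arrangement of the libraries. Poisson intervals were computed with scipy 1.17.1. Named one by one were LMO7 junctions with at least 10 reads in a species or found in both, at most 6 genes per list by reads, the 5 hosts most correlated with LMO7 and the chromosomal neighbours. Rarer junctions, LIMCH1 and the values of AFDN by library were added after their values were seen.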

Additional observations from a re-analysis of the deposited data

How the results depend on the processing

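The excess of cattle muscle over adipose tissue kept its direction and call under all 16 alternatives for summed LMO7 (2.83 to 6.14 on a log2 scale, adjusted p from 4.59e-31 to 0.00117). For its leading junction the values were 2.77 to 11.0 (adjusted p from 1.19e-36 to 0.00483). That junction passed the filter through muscle alone and has to differ, so its call under each alternative is no support. For the leading junction the edgeR and DESeq2 values are fitted against 0 adipose reads and are no bound. Counts over all circRNAs moved more. Against 62 called, there were 123 with a pseudocount of 0.1, 36 without a filter, 163 and 113 by edgeR with and without TMM, 115 by DESeq2 (595 without an adjusted p), 96 scaled to circRNA reads and 24 to 70 with 1 library left out. For hosts, against 70, these were 126, 35, 164, 119, 117, 134 and 17 to 64. The settings chosen after seeing the data, namely edgeR with a replicate block and edgeR scaled to circRNA reads, called 108 and 154 circRNAs and 131 and 167 hosts. Muscle-higher and adipose-higher calls were 59 and 3 for circRNAs and 54 and 16 for hosts, against 63 and 33, and 69 and 65, when scaled to circRNA reads, so the muscle-higher share went from 95.2% to 65.6% and from 77.1% to 51.5% as adipose-higher calls were added. That scaling in edgeR moved the median of all circRNAs to -0.26 and of all hosts to -0.39, and edgeR with TMM, without TMM and with the block, and DESeq2, gave circRNA medians of 0.11, 0.13, 0.16 and 0.15. The cause of these shifts was not tested.

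Same-numbered muscle and adipose libraries had correlations of deviations of 0.238, 0.169 and -0.0156. Differently numbered ones ranged from -0.219 to 0.0401, below 0.238 and 0.169. These values do not settle whether equal numbers are pairs, and the main fit ignores any pairing. With a replicate block, limma called 86 circRNAs and 69 hosts, and summed LMO7 kept its call. So did its leading junction, with the limit given above. Paired sign flips of the share of the leading junction gave an exact p of 0.25, the smallest possible, for the same 82.4 points, which ranged from 77.6 to 86.6 with 1 library left out. That junction was chosen on reads that came mostly from muscle, so these values are no support either. The junction at chr12:51201755-51209400 was called by 6 of 15 alternatives (adjusted p 0.000244 to 0.576 over all).

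Junctions in both species fell from 7 to 4 with at least 2 reads in each. With 2 reads summed buffalo muscle held 6, and in all 3 animals 2, 6 and 1 were found in buffalo muscle, cattle muscle and adipose tissue. The species ratio of 6.28 became 0.947 as a share of circRNA reads and was at most 6.98 with 1 library left out. The mRNA mean ranged from 73.1 to 89.3 FPKM. Limits are 3 animals per group, 13 adipose reads, between 33.7% and 61.9% of circRNAs per library at a single read, and separate tables per species.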
